A study of Mus musculus with 26 samples.

Results

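The 5 mouse dopamine receptor genes, Drd1, Drd2, Drd3, Drd4 and Drd5, were followed through 26 RNA-seq libraries of dorsal striatum. They were taken by gene symbol, and all 5 were listed in every count table, among 31979 genes shared by the tables. The mice carried the Drd2-TRAP transgene (line CP101), in which Drd2 regulatory sequence drives the ribosomal protein Rpl10a fused to EGFP, on an FVB/N-Swiss Webster background crossed for at least 9 generations to C57BL/6. Polysomes carrying the tag were immunopurified (translating ribosome affinity purification, TRAP), so the purified RNA is enriched for transcripts under translation in cells that use the Drd2 regulatory sequence. The age of the adult mice, the length of withdrawal and the number of animals per library are not stated in the labels. All animals carried the transgene and self-administered either saline or cocaine intravenously in a long-access schedule.

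Saline animals gave 3 purified libraries. Cocaine animals of the non-escalating group gave 4 and those of the escalating group 2. After withdrawal, saline animals gave 5 and non-escalating cocaine animals 9, which makes 23 purified libraries in 5 groups. Unpurified input RNA was sequenced in 1 library each for saline, non-escalating and saline withdrawal. The library numbers form 2 series and 1 number apart from both, and the libraries are divided here into set A and set B. Set B holds withdrawal libraries only (3 saline, 5 non-escalating and the withdrawal input), and all other libraries were placed in set A. Of set A, saline withdrawal replicate 2 alone has a count table of 32531 genes, as all of set B do. It held 3279457 gene counts, the fewest of any purified library. No label says whether libraries of a group came from separate animals, so the p-values below measure the spread between these libraries, which may be technical.

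Dopamine receptors are G protein-coupled receptors in 2 families. The D1-like receptors (Drd1, Drd5) couple to the stimulatory proteins Gs and Golf and raise cyclic AMP, while the D2-like receptors (Drd2, Drd3, Drd4) couple to Gi and Go and lower it. In the dorsal striatum, Drd1 marks the medium spiny neurons of the direct pathway and Drd2 those of the indirect pathway. Drd2 is also made by cholinergic interneurons, and Drd5 is known from cholinergic interneurons. Cocaine blocks the dopamine transporter and so raises dopamine at all of these receptors.

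The genes lie on different chromosomes of GRCm38 (GENCODE M21 annotation). Drd1 spans chr13:54051183-54055705 on the minus strand, and the other genes are on the plus strand: Drd2 at chr9:49340627-49408177, Drd3 at chr16:43754026-43822932, Drd4 at chr7:141292006-141296464 and Drd5 at chr5:38319367-38322518. Their annotated exons cover 3628, 2547, 1712, 3381 and 3152 bases in the order Drd1 to Drd5. The stretch shown for each gene codes for the conserved end of the third membrane-spanning segment and the residues that follow it. It shows how far the members differ where they are most alike in function. Capitals mark the codons of the Asp-Arg-Tyr motif, which faces the G protein (Asp-Arg-Phe in Drd4), and the letters come from the GENCODE M21 transcripts.
Drd1: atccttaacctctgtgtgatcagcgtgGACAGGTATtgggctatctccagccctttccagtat
Drd2: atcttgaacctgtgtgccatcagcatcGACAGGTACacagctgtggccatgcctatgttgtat
Drd3: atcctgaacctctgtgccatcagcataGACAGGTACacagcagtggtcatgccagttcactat
Drd4: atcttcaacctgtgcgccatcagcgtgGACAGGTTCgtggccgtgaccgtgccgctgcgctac
Drd5: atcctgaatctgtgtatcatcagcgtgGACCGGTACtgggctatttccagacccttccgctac
The 63-base stretch lies within 1 exon at chr13:54053804-54053866 for Drd1 (minus strand) and at chr5:38320041-38320103 for Drd5. In Drd2, Drd3 and Drd4 it is joined from 2 exons, between the outer bases 49399814 and 49400774 of chromosome 9, 43790679 and 43807408 of chromosome 16, and 141293794 and 141293943 of chromosome 7. Drd2 and Drd3 shared 52 of the 63 bases (82.5%), and Drd1 and Drd5 shared 50 (79.4%), while pairs across the 2 families shared 40 to 43. Drd4 shared 46 bases with Drd2 and 44 with Drd3. Over the whole transcripts, the longest run of identical bases shared by any 2 of the genes was 23 bases, between Drd1 and Drd5, and it was 20 bases between Drd2 and Drd3.

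Counting depth set what could be seen of each receptor. Purified libraries held 3279457 to 19122303 gene counts and inputs 5016587 to 11549493. Levels are given as CPM (gene counts scaled to a common library total) with TMM factors applied to the totals. Uniquely aligned reads outside genes were 21.2% to 70.7% of uniquely aligned reads in purified libraries and 27.3% to 31.6% in inputs. The labelled cell type was checked against fixed markers: the summed level of 5 markers of D2 neurons (Adora2a, Penk, Gpr6, Sp9, Gpr52) was 1148 to 9074 CPM in purified libraries and 1346 to 1603 CPM in inputs, and that of 5 markers of D1 neurons was 30.4 to 76.9 CPM against 207 to 289 CPM. In bulk libraries, fewer cells of a type and less RNA per cell cannot be told apart. Counts per gene also do not show whether a Drd2 read came from the native gene or from the transgene.

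Drd2 was the dominant receptor transcript of the purified RNA. It took 97.6% to 99.6% of the counts of the 5 receptor genes in every purified library, against 55.3% to 68.7% in the inputs, where Drd1 held 30.4% to 43.1%. Per kilobase of exon, Drd2 averaged 1382 CPM per kb over the 23 purified libraries, Drd1 8.21, Drd3 2.35, Drd5 0.236 and Drd4 0.0063. In the 3 inputs the same averages were 186 for Drd2, 79.2 for Drd1, 1.89 for Drd3, 1.31 for Drd5 and 0.112 for Drd4. Single libraries set the averages of the low genes. Without non-escalating withdrawal set A replicate 2, Drd3 averaged 1.04 in purified libraries, below the inputs rather than above them, and the input average of Drd3 was 0.88 without the non-escalating input. Without the saline withdrawal input, Drd5 averaged 0.235 in the inputs and Drd4 was at 0 there, and without saline replicate 4 the purified average of Drd4 was 0.0042. Among 23362 genes with an annotated length, Drd2 ranked from 3 to 11 by level per length in the purified libraries (median 6) and from 66 to 103 in the inputs. Drd1 ranked from 2106 to 7029 in purified libraries and from 253 to 387 in inputs.

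**Figure D1:**
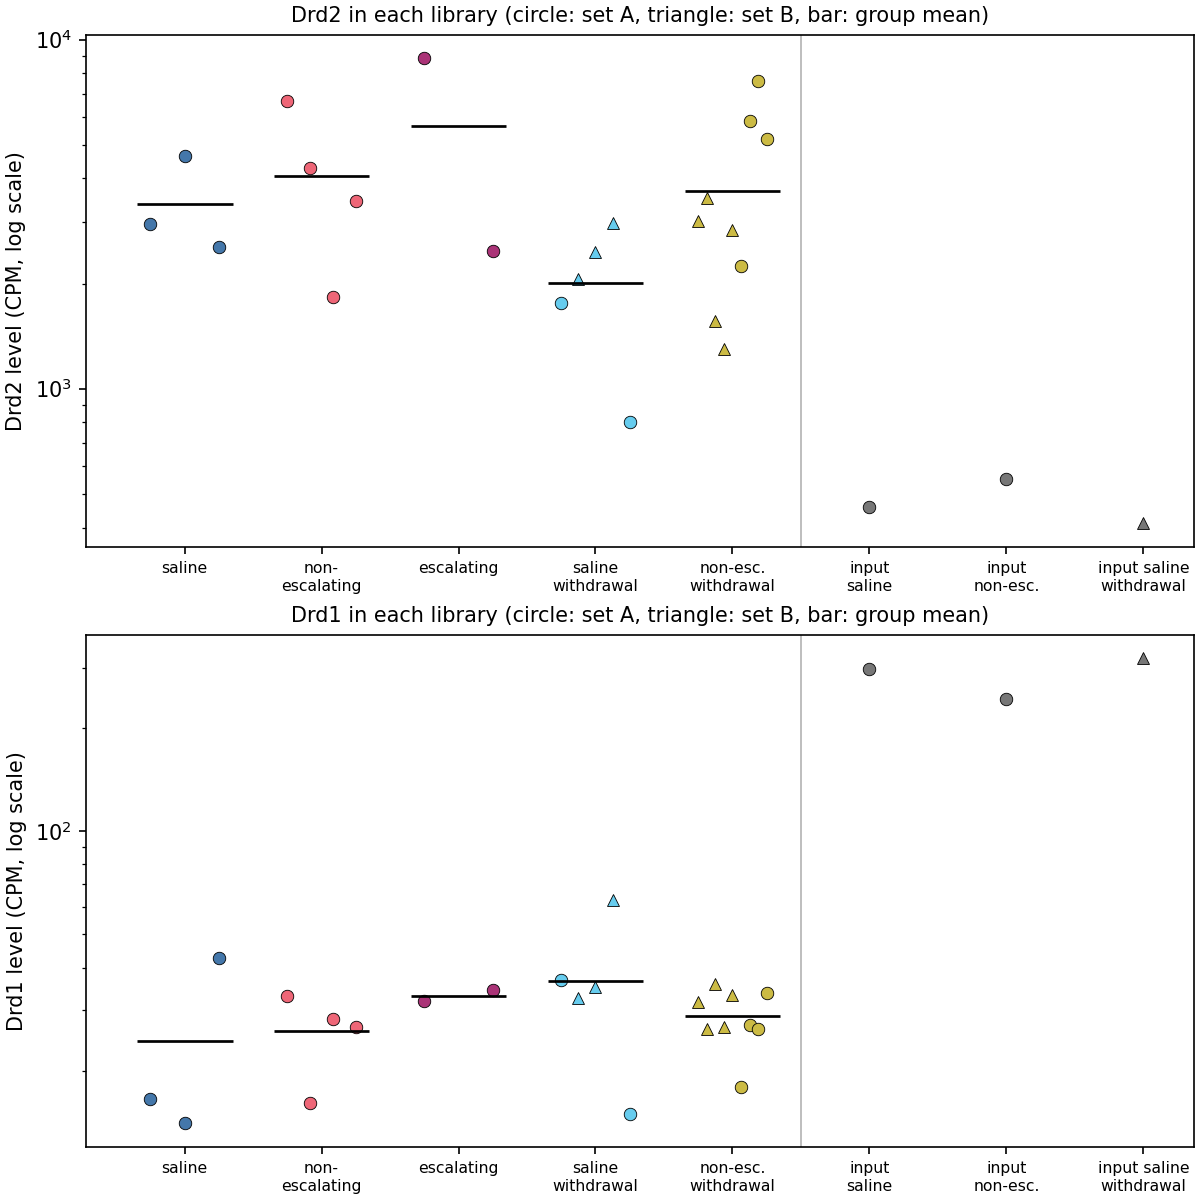
Level of Drd2 (upper panel) and Drd1 (lower panel) in each library, in CPM on a log axis, by group, with input libraries right of the line, circles for set A, triangles for set B and a bar at the group mean where a group has more than 1 library. Every purified library lies above the 3 inputs for Drd2 and below them for Drd1, and the 5 purified groups overlap for both genes.

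Drd1, the D1-like receptor of the direct pathway, was depleted by the purification. Its input levels were 298 CPM (saline), 243 CPM (non-escalating) and 320.2 CPM (saline withdrawal), and the 12 purified libraries of those conditions ran from 14.02 to 63.0 CPM with a median of 30.5 CPM. No purified library reached an input. The log2 fold change of purified against input was -3.25 ± 0.32 (SE), with adjusted p = 2.21e-05 in edgeR's quasi-likelihood test with Benjamini-Hochberg adjustment over 15612 genes. In that comparison 7.38% of all genes tested were called at an adjusted p under 0.05 (559 higher and 593 lower in purified RNA), 2 of the 5 receptor genes among them. Leaving out any 1 of the 15 libraries gave -3.47 to -3.05 for Drd1.

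Drd2, whose regulatory sequence defines the purified cells, rose with purification. Its levels were 457 CPM in the saline input, 550.2 CPM in the non-escalating input and 411 CPM in the saline withdrawal input. The 12 purified libraries of those conditions ran from 804 to 6678 CPM, with a median of 2751 CPM. All 12 were above all 3 inputs, and the log2 fold change was 2.79 ± 0.38 (SE; adjusted p = 0.00046, edgeR). With any 1 library left out it was 2.67 to 2.88. The lowest purified library, saline withdrawal set A replicate 1 at 804 CPM, also had the largest share of reads outside genes, 70.7%.

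Markers of other cells were read in the same comparison. Of the 5 D2 neuron markers 4 were called higher in purified RNA, and 3 of the 5 D1 neuron markers were called lower. Beside these and the lists below, 7.38% of all genes tested were called, 559 higher and 593 lower. Endothelial markers rose as well: Flt1, a vascular growth factor receptor (log2 fold change 4.02 ± 1.01), Cdh5, the cadherin of endothelial junctions (4.06 ± 1.06), and Pecam1, an endothelial adhesion molecule (3.22 ± 0.88), were called higher, with adjusted p = 0.0255, 0.0315 and 0.0382 in edgeR. These fold changes are larger than the 2.79 of Drd2, a difference that was not tested. Cldn5 and Tek were not called (2.97 ± 1.22 and 2.10 ± 1.06). Cldn5 gained a call in 1 of 6 other settings and in 1 of the 15 fits with 1 library left out. The summed level of the 5 was 42.8 to 3564 CPM over the 23 purified libraries, with a median of 749 CPM, against 40.8, 34.2 and 253 CPM in the saline, non-escalating and saline withdrawal inputs, so the ranges overlapped. The 3 endothelial calls were lost under the replicate block, without the saline input or without the non-escalating input, and Cdh5 and Pecam1 lost theirs under further settings. All 5 astrocyte markers and 4 of 5 oligodendrocyte markers were called lower, as were 3 of 5 markers of GABAergic interneurons, 1 of 4 tested markers of cholinergic interneurons and 1 of 4 of microglia. No marker of cortical glutamatergic or of dopamine neurons was called, of 5 and 4 tested. The part of endothelial RNA in the receptor values was not tested.

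Drd3, a D2-like receptor best known from the ventral striatum, did not pass the test between purified and input RNA. The inputs held 18, 75 and 1 counts for saline, non-escalating and saline withdrawal (2.78, 6.67 and 0.227 CPM), and the 12 purified libraries ran from 0 to 3.88 CPM with a median of 1.35 CPM. The ranges overlapped. The log2 fold change was -0.70 ± 1.02 (SE; adjusted p = 0.703, edgeR), and its sign rested on the non-escalating input: it was 0.43 without that library.

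Drd5, the second D1-like receptor, was also not called. The inputs held 9, 1 and 48 counts for saline, non-escalating and saline withdrawal (1.39, 0.0889 and 10.9 CPM), while the 12 purified libraries held 0 to 17 counts (up to 1.81 CPM) and 4 of them held none. The saline withdrawal input stood above every purified library. Against the inputs the log2 fold change was -2.20 ± 1.47 (SE; adjusted p = 0.361, edgeR), and it was -0.43 without that input. The same input had the highest summed level of cholinergic interneuron markers, 153 CPM against 65.6 and 96.1 CPM in the other inputs and 2.40 to 45.4 CPM in purified libraries, with Gbx2 at 0 everywhere. The part of these cells in the Drd5 value was not tested. Annotated exons of Drd5 overlap those of the opposite-strand gene Gm26560 by 1531 bases, and whether strand was used in counting is not stated in the labels or processing notes.

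Drd4, a D2-like receptor of retina and prefrontal cortex, had too few counts for a test and was removed by the filter on low counts in both fits. The 23 purified libraries held 5 Drd4 counts in all: 2 each in saline replicates 1 and 4 and 1 in non-escalating replicate 3. The other 20 libraries were at 0, which allows up to 3 counts, or 0.159 to 0.852 CPM depending on depth. The saline withdrawal input held 5 counts (1.14 CPM, 95% exact Poisson interval 0.369 to 2.65 CPM), and the other inputs held none. These limits cover counting error only.

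**Figure D2:**
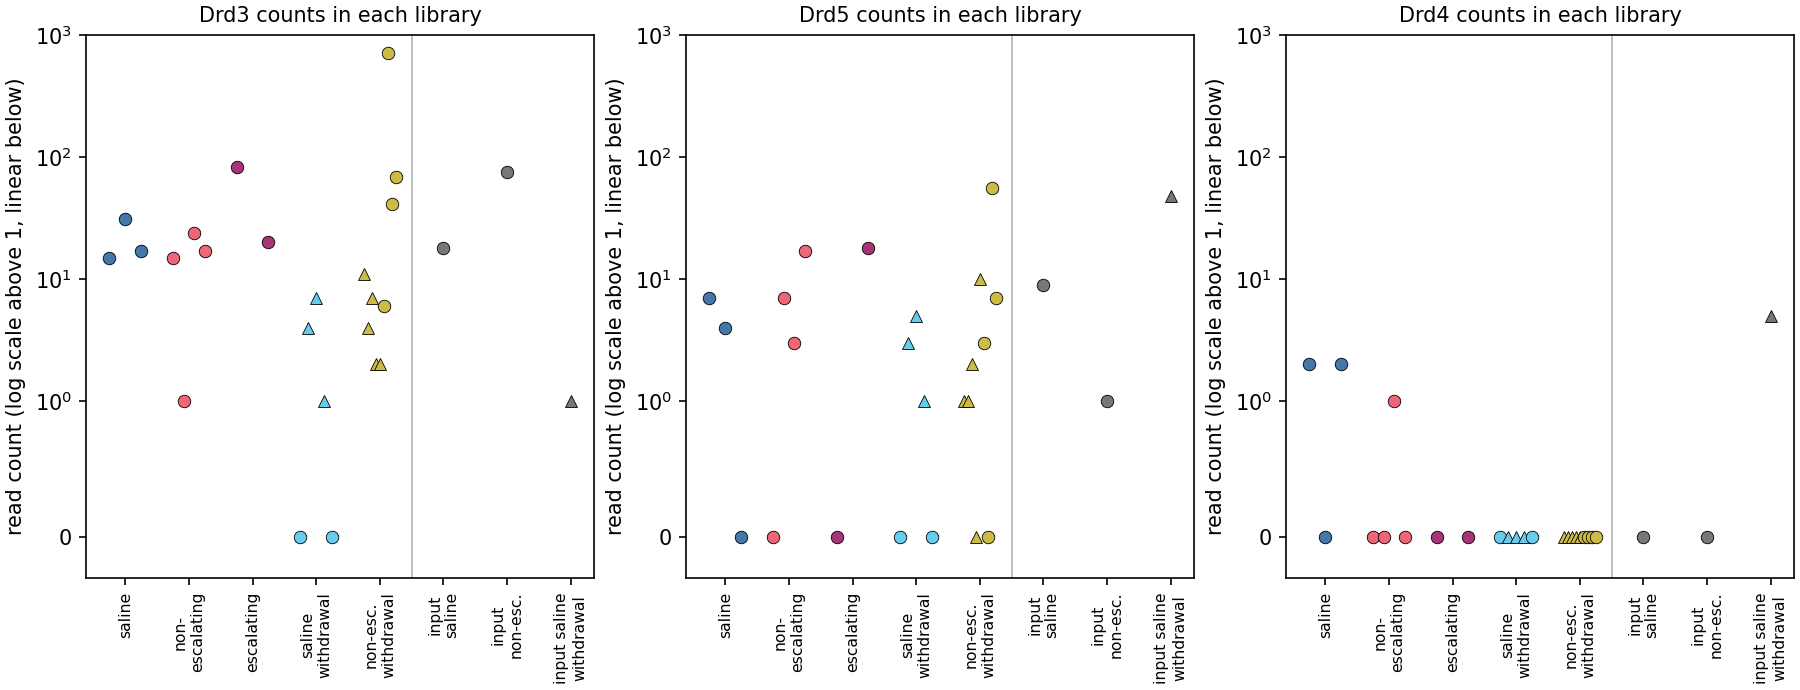
Read counts of Drd3, Drd5 and Drd4 in each library by group (circles set A, triangles set B; log axis above 1 and linear below, inputs right of the line). Drd3 reaches 715 counts in 1 non-escalating withdrawal library, Drd5 reaches 56 in another, and Drd4 stays at 5 or fewer counts everywhere.

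Levels of the genes next to the receptors were read for comparison. Deaf1, a transcription factor gene on the opposite strand, ends 0.716 kb from the end of Drd4. It was at 28.3 to 96.1 CPM in purified libraries and 12.5 to 30.9 CPM in inputs. Its log2 fold change was 1.38 ± 0.33 (adjusted p = 0.020 in edgeR). That call was lost under the replicate block and without any 1 of the inputs. Ankk1, a kinase gene 7.02 kb from Drd2, was at 21.1 to 263 CPM against 32.5 to 51.8 CPM and was not called (log2 fold change 1.21 ± 0.37, adjusted p = 0.0582, edgeR). Its call was gained with DESeq2 (adjusted p = 0.00923), without the low-count filter and in 3 of the 15 fits with 1 library left out, those without non-escalating replicate 3 or either set A library of saline withdrawal. Sfxn1, 16.2 kb from Drd1, was lower, at 10.8 to 27.4 CPM against 41.8 to 67.7 CPM (log2 fold change -1.48 ± 0.30, adjusted p = 0.00828, edgeR), a call lost under the replicate block.

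The groups compare cocaine with saline, escalating with non-escalating intake, and withdrawal with none. For Drd2, the saline libraries (replicates 1, 3 and 4) stood at 2963, 4627 and 2540.2 CPM (mean 3377 ± 1103, SD, n = 3) and the non-escalating libraries at 6678, 4293, 1835 and 3451 CPM (4064 ± 2019, SD, n = 4). The 2 escalating libraries were at 8854 and 2483 CPM, so this group held the highest value of the series and one below every saline library. The groups overlapped. Log2 fold changes were 0.27 ± 0.57 (SE) for non-escalating against saline, 0.75 ± 0.67 for escalating against saline and 0.48 ± 0.63 for escalating against non-escalating, each with adjusted p = 1 in edgeR. Without escalating replicate 1 the differences of the escalating group were -0.44 from saline and -0.71 from non-escalating, and without replicate 2 they were 1.39 and 1.12, with the remaining library assumed to vary like the other groups.

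After withdrawal, Drd2 was at 804, 1754, 2055, 2463 and 2977 CPM in the saline libraries (2 of set A, then 3 of set B, the order used for this group throughout; mean 2011 ± 816, SD, n = 5). The 9 non-escalating withdrawal libraries ran from 1296 to 7623 CPM with a median of 3029.9 CPM. The 2 saline withdrawal libraries of set A were the lowest of their group, and 3 of the 4 non-escalating withdrawal libraries of set A were the highest of theirs. The log2 fold change of non-escalating withdrawal against saline withdrawal was 0.71 ± 0.45 (SE; adjusted p = 0.749, edgeR). It was 0.36 without saline withdrawal set A replicate 1 and 0.35 ± 0.24 with the share of reads outside genes as a covariate. Drd2 differed by -0.40 ± 0.64 between saline withdrawal and saline and by 0.04 ± 0.48 between non-escalating withdrawal and non-escalating. The interaction of treatment with withdrawal was 0.44 ± 0.72 (adjusted p = 1, edgeR). In order of group mean the levels ran escalating, non-escalating, non-escalating withdrawal, saline and saline withdrawal, and no 2 groups in this order were separated: none of the 10 pairs of groups had ranges that did not overlap. The same count over all genes is not given, here or beside the counts of pairs below.

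Over the 23 purified libraries the coefficient of variation was 35.6% for Drd1 and 59.2% for Drd2. Drd1 was at 16.5, 14.02 and 42.5 CPM in saline, at 33.0, 16.1, 28.3 and 26.9 CPM in non-escalating and at 32.0 and 34.3 CPM in escalating libraries. The saline withdrawal libraries held 14.9, 36.7, 32.6, 35.1 and 63.0 CPM, and the non-escalating withdrawal libraries ran from 18.0 to 35.8 CPM with a median of 27.1 CPM. Saline replicate 4 and saline withdrawal set B replicate 3 were the highest of their groups, and again none of the 10 pairs of groups was separated. The log2 fold changes were 0.10 ± 0.40 (SE) for non-escalating against saline, 0.44 ± 0.47 for escalating against saline, 0.34 ± 0.44 for escalating against non-escalating and -0.28 ± 0.29 for non-escalating withdrawal against saline withdrawal. Withdrawal gave 0.30 ± 0.42 in saline and -0.08 ± 0.34 in non-escalating animals, and the interaction was -0.38 ± 0.49. The lowest adjusted p among these was 0.792 (edgeR).

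Drd3 stood out in 1 library. It was at 1.26, 3.88 and 1.52 CPM in saline, at 1.495, 0.126, 3.42 and 1.81 CPM in non-escalating and at 5.30 and 1.06 CPM in escalating libraries. In saline withdrawal it was at 0, 0, 0.819, 1.44 and 0.284 CPM. The non-escalating withdrawal libraries ran from 0.405 to 53.3 CPM with a median of 1.57 CPM, and the highest, set A replicate 2 with 715 counts, lay far above the next at 6.16 CPM. The log2 fold change of non-escalating withdrawal was 2.67 ± 1.32 (SE) against non-escalating (adjusted p = 0.926, edgeR) and 2.14 ± 1.42 against saline withdrawal (adjusted p = 0.749, edgeR). Without that library the first value was 0.45. The ranges of all pairs of groups overlapped.

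Drd5 was sparse in all groups. Saline libraries held 7, 4 and 0 counts, non-escalating libraries 0, 7, 3 and 17, and escalating libraries 0 and 18. Saline withdrawal libraries held 0, 0, 3, 5 and 1 counts, and non-escalating withdrawal libraries 0 to 56 with a median of 2. Of the 23 purified libraries 7 held none, and 1 library, non-escalating withdrawal set A replicate 3, held 56 of the 145 counts. This is not the library in which Drd3 was high, which held no Drd5 count. The largest log2 fold change of Drd5 between groups was 1.43 ± 1.69 (SE), for non-escalating withdrawal against saline withdrawal (adjusted p = 0.817, edgeR), and it was -0.047 with replicate numbers as a block and 0.44 without non-escalating withdrawal set B replicate 5.

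**Figure D3:**
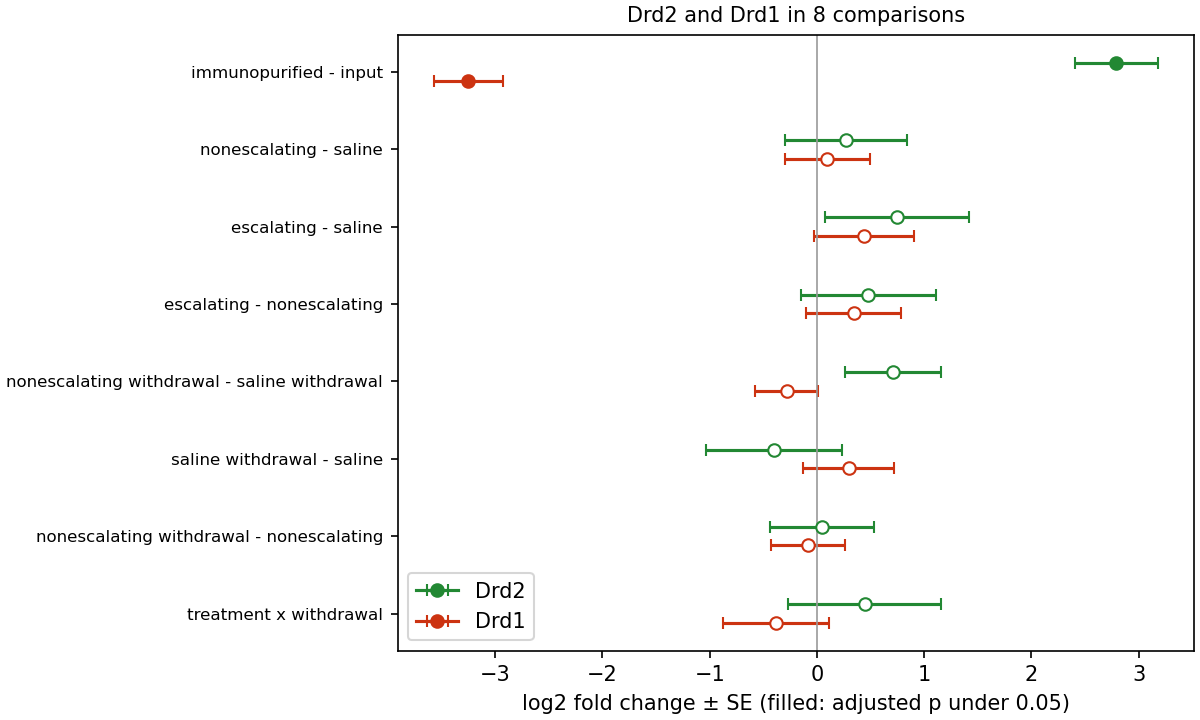
Log2 fold change with its SE for Drd2 (green) and Drd1 (red) in purified against input RNA and in the 7 comparisons of purified groups, filled where the adjusted p was under 0.05. The 2 genes move in opposite directions with purification, at 2.79 and -3.25, and every comparison of groups is unfilled.

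No gene of the 16910 tested was called by edgeR in any of the 7 comparisons of purified groups (0%), receptor genes included. Genes with an unadjusted p under 0.05 numbered 356 for non-escalating against saline, 518 for escalating against saline and 558 for escalating against non-escalating. They numbered 882 for non-escalating withdrawal against saline withdrawal, 885 and 763 for withdrawal in saline and in non-escalating animals, and 345 for the interaction. DESeq2 called 2, 6, 11, 1, 7, 12 and 2 genes in the same order, with neither Drd1 nor Drd2 among them.

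The ratio of Drd2 to Drd1 counts within a library needs no scaling between libraries and was taken as a second view of the purified cells. It was 1.53, 2.26 and 1.28 in the saline, non-escalating and saline withdrawal inputs and 43.8 to 329.9 in purified libraries. Saline libraries had ratios of 179.8, 329.9 and 59.7, non-escalating libraries 202, 266, 64.7 and 128, and escalating libraries 277 and 72.4. Saline withdrawal libraries lay close together, at 53.8, 47.8, 63.1, 70.2 and 47.2 (SD of the log2 ratio 0.25, against 0.89 to 1.37 in the other groups), and non-escalating withdrawal libraries ran from 43.8 to 288 with a median of 125. Of the 10 pairs of groups, escalating and saline withdrawal alone did not overlap, by 72.4 against 70.2. That pair holds 2 and 5 libraries and was not among the comparisons tested.

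Non-escalating withdrawal exceeded saline withdrawal by 1.01 in the mean log2 ratio (exact permutation test, two-sided, p = 0.0365, adjusted over 6 comparisons p = 0.161). Within set A the difference was 1.88 (exact p = 0.0667, the smallest possible with 4 against 2 libraries), and within set B it was 0.33 (exact p = 0.5). A difference between the sets was not tested. Of the 2 set A libraries of saline withdrawal, replicate 2 has a count table like those of set B, and its library number does not settle its set. Saline withdrawal was below saline by -1.45 in the mean log2 ratio (exact permutation p = 0.0536, adjusted p = 0.161), and -1.59 within set A (exact p = 0.2). That difference rested on single saline libraries: it was -0.89 without saline replicate 3 and -2.13 without saline replicate 4. The other 4 comparisons gave differences from -0.38 to -0.04 with exact permutation p from 0.49 to 1. With so few libraries the smallest possible p was 0.1 for escalating against saline and 0.0667 for escalating against non-escalating.

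The Drd2 level moved with the share of reads outside genes. Over the 23 purified libraries Pearson's r between log2 CPM of Drd2 and that share was -0.80 and Spearman's rho -0.79 (permutation p = 1e-05 for both, the smallest 100000 resamples can give, adjusted over 4 relations p = 4e-05). It held within set A (r = -0.85, n = 15, permutation p = 6e-05) and, by r, within set B (r = -0.74, n = 8, exact permutation p = 0.0386; rho = -0.62, exact p = 0.115), and r was -0.76 once the 2 libraries with the most extreme shares were left out. The log2 ratio of Drd2 to Drd1 contains the Drd2 counts, so its relation is not an independent result. It went in the same direction (r = -0.65, permutation p = 0.00075, adjusted p = 0.0015). Its rho was -0.74 (permutation p = 0.00014), and r was -0.70 in set A, -0.75 in set B and -0.75 without the 2 farthest libraries. For Drd1 the relation missed the threshold (r = -0.09, permutation p = 0.68; rho = 0.12, permutation p = 0.582; r = 0.33 without the 2 farthest libraries), as it did between Drd2 and Drd1 (r = 0.05, permutation p = 0.803; rho = -0.16, permutation p = 0.453).

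**Figure D4:**
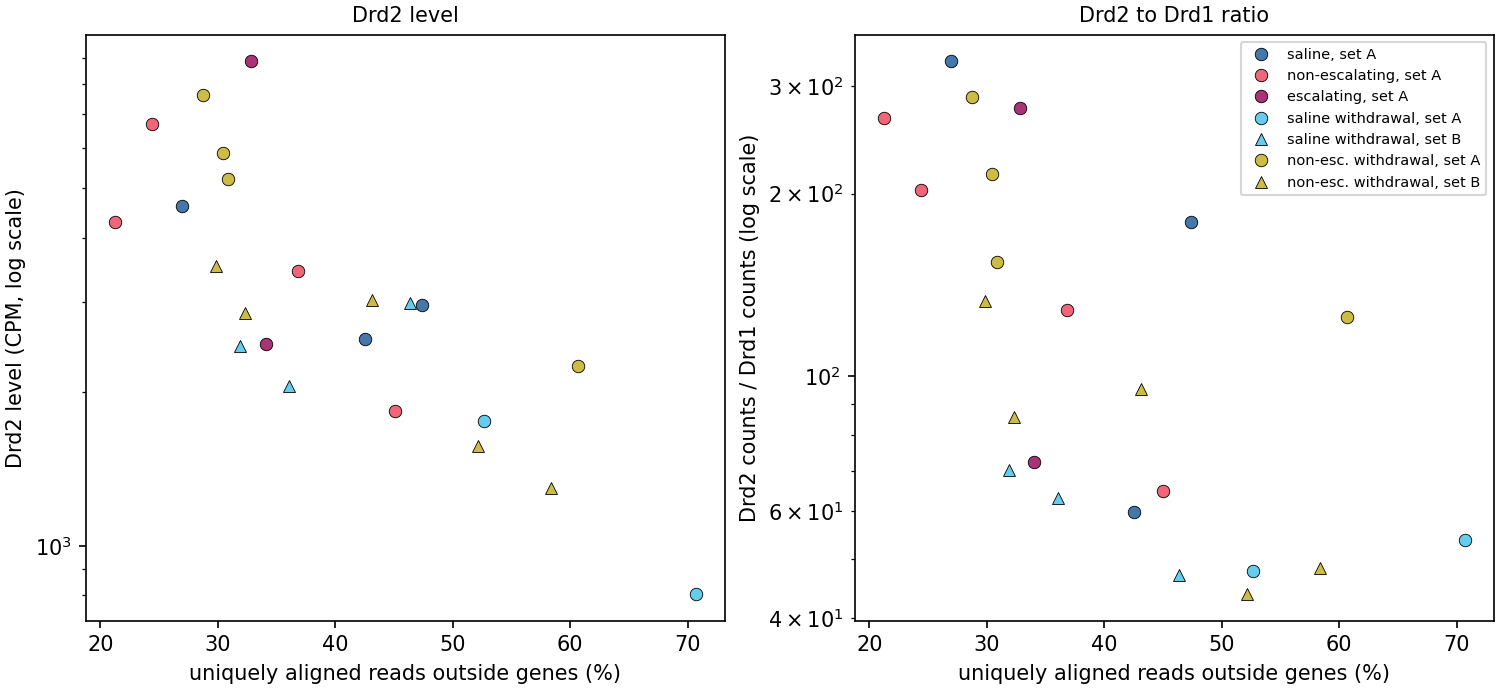
Drd2 level in CPM (left, log axis) and ratio of Drd2 to Drd1 counts (right, log axis) against the percentage of uniquely aligned reads outside genes in the 23 purified libraries, colored by group, with circles for set A and triangles for set B. Drd2 is lowest, at 804 CPM, in the library with 70.7% of reads outside genes.

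That share differed between groups: its median was 42.6% in saline, 30.6% in non-escalating, 33.4% in escalating, 46.4% in saline withdrawal and 32.3% in non-escalating withdrawal libraries. Some of the marker lists moved with Drd2 as well. The summed level of 5 endothelial markers (Flt1, Cdh5, Cldn5, Pecam1, Tek) had a median of 1628 CPM in saline withdrawal (range 750.1 to 3564) and 519 CPM in non-escalating withdrawal (42.8 to 2930), and its correlation with Drd2 over the 23 libraries was -0.66. For the 5 D2 neuron markers the medians were 3385 and 6291 CPM and the correlation with Drd2 was 0.89, and for 5 oligodendrocyte markers the correlation was 0.68. The correlation was -0.58 for microglia. It was weaker for cortical glutamatergic neurons (-0.16), astrocytes (-0.02), D1 neurons (0.20), GABAergic interneurons (0.27) and cholinergic interneurons (0.28). The dopamine-neuron list correlated with Drd2 at -0.80, but its defining member Slc6a3, the dopamine transporter, was at 0 in every library outside the escalating group. These correlations describe libraries that share scaling and depth, and the part of these cells in the receptor levels was not tested.

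The genes whose log2 CPM followed Drd2 most closely over the 23 purified libraries, of 10362 genes averaging 5 CPM or more, were Dlgap4 (r = 0.963), a postsynaptic scaffold gene, Rnf44 (0.957), a RING finger gene, Pcsk1n (0.953), which encodes the neuroendocrine precursor proSAAS, Wbp2 (0.951) and the kainate receptor subunit gene Grik3 (0.951). Of these genes, 2 were also among the top 5 by Spearman's rho, and 104 genes had r above 0.9. The classical D2 neuron genes followed less closely, Adora2a at 0.871 (rank 251) and Penk at 0.842 (rank 428). For Drd1 the closest genes were Kbtbd2 (0.754), Mbd4 (0.724), Ube2h (0.719), Snrpa1 (0.708) and Slc36a4 (0.684), none had r above 0.9, and 2 neuropeptide genes of D1 neurons had 0.478 (Tac1, rank 192) and 0.085 (Pdyn, rank 4357).

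The partners of the receptors were read from 4 lists of 59 genes, of which 56 were tested. Between purified and input RNA, 2 were called higher and 5 lower by edgeR (12.5% of the 56, beside 7.38% of all genes tested). Both of the higher ones encode proteins that bind D2 receptors: Adora2a, the adenosine receptor of indirect-pathway neurons (141 to 1973 CPM in purified libraries against 293 to 468 CPM in inputs, log2 fold change 1.57 ± 0.40, adjusted p = 0.0266), and Ppp1r9b, the scaffold spinophilin (0.92 ± 0.26, adjusted p = 0.0437). Adora2a lost its call in 3 of 6 other settings (the replicate block, no set term, all 23 purified libraries) and in 2 of the 15 fits with 1 library left out, those without the saline or the non-escalating input. Ppp1r9b lost its call in the same 3 settings and in 11 of the 15 fits, among them those without any 1 of the inputs. In the same list of 10 receptor partners Cadps, a factor for vesicle priming, was lower (97.5 ± 28.8 CPM, SD, n = 12, against 264 ± 24.96 CPM, SD, n = 3; log2 fold change -1.31 ± 0.18, adjusted p = 0.000467, edgeR). The list's median log2 fold change was 0.26, beside 0.16 over all genes tested.

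In the inhibitory coupling list, which holds G proteins, regulators, kinases, arrestins and channels of D2-like receptors, 1 of 22 tested genes was called (4.55%, beside 7.38% of all genes). That was Gnai1, a Gi alpha subunit, which was lower in purified RNA, at 46.1 to 151 CPM against 266 to 375 CPM in inputs, without overlap (log2 fold change -1.56 ± 0.19, adjusted p = 0.000174, edgeR). Rgs9, the striatal regulator of Gi signaling, was at 116 to 821 CPM against 747 to 1039 CPM and was not called (-0.71 ± 0.24, adjusted p = 0.0822, edgeR). It gained a call in 1 of 6 other settings and in 2 of the 15 fits with 1 library left out. The list's median was -0.12. In the stimulatory cascade of D1-like receptors 2 of 15 genes were called (13.3%, beside 7.38% of all genes), both lower: the protein kinase A subunit gene Prkar1b (-0.85 ± 0.22, adjusted p = 0.0275, edgeR) and Gnas, the Gs alpha subunit (-0.78 ± 0.21, adjusted p = 0.0333, edgeR). Ppp1r1b, which encodes DARPP-32, had 0.86 ± 0.34 (adjusted p = 0.128, edgeR), and the list's median was -0.03. Ppp1r1b gained a call in 2 of the 15 fits with 1 library left out.

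Of the genes for dopamine synthesis, storage, uptake and breakdown, 9 of 11 were tested and 1 was called (11.1%, beside 7.38% of all genes), the pteridine reductase gene Qdpr (-1.39 ± 0.34, adjusted p = 0.0234, edgeR). Th, tyrosine hydroxylase, was at 0 to 2.87 CPM in the 12 purified libraries against 2.78 to 23.4 CPM in inputs and was not called (-2.78 ± 1.02, adjusted p = 0.101, edgeR). It gained a call in 1 of 6 other settings. Of the 7 called partner genes, Gnai1 and Cadps were called under every one of the 21 alternatives run, and each of the other 5 lost the call under the replicate block and without the non-escalating input.

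Between purified groups none of the 56 partner genes was called. The gene with the lowest p was Grk5, a receptor kinase, for non-escalating against saline (log2 fold change -1.05 ± 0.55) and for non-escalating withdrawal against non-escalating (1.13 ± 0.51). It was Adrbk1, the receptor kinase GRK2, for escalating against saline (0.89 ± 0.42), and Arrb1, an arrestin, for escalating against non-escalating (0.87 ± 0.46). Gnai1 had the lowest p for non-escalating withdrawal against saline withdrawal (0.90 ± 0.31, adjusted p = 0.749, edgeR), and Gnai2 for saline withdrawal against saline (1.07 ± 0.44). Between non-escalating withdrawal and saline withdrawal the log2 fold change was positive in 15 of 15 genes of the stimulatory cascade (median 0.60), 16 of 22 of inhibitory coupling (0.45), 6 of 10 receptor partners (0.34) and 2 of 9 genes of dopamine metabolism (-0.57), beside a median of 0.01 over all genes. Between saline withdrawal and saline it was positive in 1 of 15 (-0.62), 8 of 22 (-0.57), 3 of 10 (-0.38) and 8 of 9 (0.71) in the same order, beside 0.08 over all genes. These comparisons share the saline withdrawal libraries, and none of the genes was called. The same libraries had the highest group median of the share of reads outside genes, with ranges that overlapped.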

How the data were processed

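Each deposited table gives 1 library's read counts by gene symbol, which the authors left without normalization. The submitters' processing notes name STAR 2.0.0e, HTSeq and the mm10 build. No source used here gives the annotation, the strand use or the filters. The tables follow 2 annotations (10 tables of 32531 genes and 16 of 32657). They were joined on 31735 shared symbols and 244 pairs of old and current symbols, which cover 99.53% to 99.94% of the gene counts in a library. The entries that name no gene were kept out of library sizes and gave the shares of reads outside genes.

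Sample titles gave the groups, and the library numbers they contain gave the sets. Titles of set A mark all but 1 library as a copy of a lower number, and the meaning of that mark is not given. None of 56 pairs of libraries of the same group held identical counts (chi-square per degree of freedom 11.8 to 265).

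Counts were analysed with edgeR 4.0.16 in R 4.3.3 (TMM factors, filterByExpr, quasi-likelihood F test, Benjamini-Hochberg adjustment over all genes tested, called under 0.05). Purified and input libraries were compared in a fit of 12 purified libraries and 3 inputs with condition and set as terms (10 residual degrees of freedom), and groups in a fit of 23 purified libraries with group and set as terms (17 residual degrees of freedom). Both fits were run on simulated counts with known changes, where only recovery of the median log2 fold change was required. The simulated counts held no group or set effects of these data, and no power is reported from them. The SE of an edgeR log2 fold change was taken as its absolute value divided by the square root of the F statistic. Log2 CPM used a prior count of 2. Exact intervals and floors of 3 counts cover counting error only. Differences of ratios were tested exactly over all arrangements of the libraries. Correlations were tested by permutation, exactly below 10 libraries and with 100000 resamples otherwise (scipy 1.17.1 for ranks and adjustment). Other settings tried were RLE factors, DESeq2 1.42.0, other design terms, no filter on low counts, a replicate block and leaving out each library.

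The receptor genes, partner lists and markers were chosen with earlier results of these data known, so they are not independent support. Partner genes named against input are among the 4 with the lowest p in each list, and not all 4 are named. Prkar2b (log2 fold change -0.62 ± 0.20) and Adrbk2 (-1.63 ± 0.55) were not called and had a lower p than the named Ppp1r1b and Rgs9. Between groups, the 1 gene with the lowest p was named in each comparison. The gene this rule names for the interaction is not reported here. Positions, lengths and sequences come from GENCODE M21 (GRCm38).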

Additional observations from a re-analysis of the deposited data

Results flagged for a closer look

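In groups of 4 to 10 libraries the highest and lowest value of each receptor was compared with the others of its group by Dixon's gap test, over 18 sets of values; chance flags about 1 in 20 such sets. Of these, 3 were set apart, 1 of them by construction. Drd3 was at 53.31 CPM in non-escalating withdrawal set A replicate 2, with the nearest library of the group at 6.155 CPM. Among 11374 genes with at least 100 counts in 1 of these 9 libraries, 53 (0.466%) had a highest library at least as far above the second as Drd3 had, by a factor of 8.66, and in 42 of them that library was the same one. Drd5 was at 5.921 CPM in non-escalating withdrawal set A replicate 3, with the nearest at 2.391 CPM. Drd4 was at 0.1424 CPM in non-escalating replicate 3, which is 1 count where the other 3 libraries had none; any single count among libraries at 0 is set apart in this way.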

How the results depend on the processing

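Drd1 and Drd2 kept their direction and their call between purified and input RNA under all 21 alternatives run, 6 settings and 15 libraries left out, with adjusted p up to 0.00339 and 0.0134 (edgeR or DESeq2). The number of genes called there moved from 1152 to 2951 with DESeq2, of which 62.8% were higher in purified RNA against 48.5% before, to 173 with a replicate block and to 241 to 1546 with 1 library left out, 241 without the non-escalating input. Drd3 reversed to 0.59 with all 23 purified libraries and ran from -1.30 to 0.43 with 1 library left out.

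Between purified groups, DESeq2 called 2, 6, 11, 1, 7, 12 and 2 genes in the order of the report where edgeR called 0. Without the low-count filter 2 genes were called for escalating against saline and 1 against non-escalating, and with the share of reads outside genes as a covariate 2 and 4. With 1 library left out these counts ran from 0 to 2 and from 0 to 6, highest without escalating replicate 1. No library left out gave a call in the other comparisons.

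Several small differences that were never called changed sign. With the covariate, Drd2 had -0.18 for non-escalating against saline and 0.0077 for saline withdrawal against saline; without the set term, non-escalating withdrawal against non-escalating gave 0.15 for Drd1 and -0.14 for Drd2. With 1 library left out, Drd1 ran from -0.20 to 0.77 for non-escalating against saline and from -0.26 to 0.046 for non-escalating withdrawal against non-escalating. Drd2 ran from -0.084 to 0.54 and from -0.24 to 0.39 in the same comparisons, from -0.44 to 1.39 and from -0.71 to 1.12 for escalating against saline and non-escalating, and from -0.58 to 0.10 for saline withdrawal against saline. Adrbk1 ran from -0.049 to 1.46 for escalating against saline. The log2 ratio of Drd2 to Drd1 ran from -0.74 to 0.49, from -1.07 to 0.86 and from -1.01 to 0.93 in the 3 comparisons without withdrawal. For non-escalating withdrawal against non-escalating it gave 0.36 within set A, which is also the value paired by replicate number (replicate block). For saline withdrawal against saline the log2 ratio kept its sign, from -2.13 to -0.89. The correlation of Drd1 with the share outside genes was 0.13 in set B and 0.33 without the 2 farthest libraries, and that of Drd2 with Drd1 was -0.10 without the 2 farthest. The cause of these changes was not tested.

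Replicate numbers showed no sign of pairing (the median correlation of residuals was -0.29 over 25 same-number pairs and -0.09 over 78 others). Under the replicate block no gene was called between groups, and Drd5 had -0.047 for non-escalating withdrawal against saline withdrawal. RLE factors moved the median of all genes by 0.13 for saline withdrawal against saline, from 0.08 to 0.22. Of the 5 genes closest to Drd2, 2 stayed by Spearman's rho and 2 after group and set means were removed, and of those closest to Drd1 2 and 1. Mean levels per kilobase without each library and the alternatives for endothelial markers were added after the data were seen. Depth limits Drd3, Drd4 and Drd5, which held few counts in most libraries.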
